A study of Mus musculus with 12 samples.

Results

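The SMAD genes and the SKI corepressors form the part of the TGF-β pathway that carries the signal from the receptors to the genome and limits it there. The 10 genes Smad1, Smad2, Smad3, Smad4, Smad5, Smad6, Smad7, Smad9, Ski and Skil were taken by symbol from a table of raw read counts that holds 21556 genes, and each had 1 row. RNA was sequenced from primary fibroblasts grown from abdominal mouse skin, in 4 groups of 3 libraries. WT cells came from C57BL/6 mice and Nox4 KO cells from mice of the strain B6.129-Nox4tm1Kkr/J, which carry a targeted disruption of the gene of NADPH oxidase 4, and the colony was started from heterozygous parents and then kept as separate WT and KO litters, so genotype and litter cannot be told apart. Cells were plated, starved for 24 h and stimulated with 10 ng/ml TGF-β2 for 24 h (WT_TGFb and KO_TGFb) or left without it (WT_CTRL and KO_CTRL). The number of mice behind each library is not given in the sources used here, so p-values measure the spread between these libraries, which may be in part technical.

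TGF-β and activins bind serine/threonine kinase receptors that phosphorylate SMAD2 and SMAD3, and bone morphogenetic proteins (BMPs) bind related receptors that phosphorylate SMAD1, SMAD5 and SMAD9 (also called SMAD8). The phosphorylated proteins join SMAD4, enter the nucleus and bind DNA with other factors. SMAD6 and SMAD7 are inhibitory SMADs that act at the receptors and recruit ubiquitin ligases, and SKI and SKIL (also called SnoN) bind SMAD complexes on DNA and bring in corepressors. In fibroblasts this pathway is known for driving matrix production and the change into contractile myofibroblasts. The libraries measure the mRNA of these genes and not the phosphorylation or amount of the proteins.

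Total counts per library lay between 35118344 and 43796260, and none of the 10 genes fell below 108 reads in a library. Nox4, the targeted gene, had a mean of 1.74 RPKM (reads per kilobase of merged exons, scaled to the counted reads of the library) in WT_CTRL and 11.9 in WT_TGFb, against 0.896 in KO_CTRL and 5.26 in KO_TGFb, so reads were counted on the gene in every KO library. By edgeR's quasi-likelihood test the KO to WT log2 fold change of Nox4 was -1.0 unstimulated (95% interval -1.89 to -0.11, unadjusted p = 0.033, adjusted p = 0.83), with overlapping groups. After TGF-β2 it was -1.17 (-1.86 to -0.48, unadjusted p = 0.0052, adjusted p = 0.835), with groups that did not overlap. Neither passed the adjusted limit, and a count over the whole gene does not check a disruption of part of it. All 10 fibroblast markers reached 1 RPKM, with a summed level between 5856 and 9771 RPKM in a library that was lower in every stimulated library than in every unstimulated one. Of the 6 keratinocyte markers and the 6 markers of Schwann cells and melanocytes, 0 reached 1 RPKM in a group, and Krt1, Krt5, Dct and Tyr had no read in some groups. Of the endothelial markers 1 of 5 (Kdr), of the adipocyte markers 1 of 5 (Fabp4), and of the skeletal muscle markers 2 of 5, led by Acta1, reached 1 RPKM, while Myog and Myod1 were at 0 in both stimulated groups. The skeletal muscle sum, led by Acta1, was between 42.0 and 110 RPKM in unstimulated and between 256 and 615 in stimulated libraries. Myeloid markers, 5 of 6 at 1 RPKM or more and led by Lyz2, varied within each group and summed to between 13.3 and 120 RPKM per library. Over all genes, WT_TGFb replicate 2, WT_CTRL replicate 3 and replicate 3 of both KO groups stood apart from the other libraries of their group. The mean squared difference of a gene's counts over that of counting alone was 125 and 154 between WT_TGFb replicate 2 and the other two, against 30.3 between those. For WT_CTRL replicate 3 it was 53.2 and 65.3 against 15.1. It was 93.0 and 70.9 for KO_CTRL replicate 3 against 28.4, and 124 and 83.2 for KO_TGFb replicate 3 against 26.1. The part of other cell types in the values below was not tested, and fewer cells of a type and less RNA per cell cannot be told apart in such bulk samples.

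After TGF-β2, Smad3, Smad6 and Smad9 were lower and Smad7 and Skil were higher in both genotypes, while Smad1, Smad2, Smad5 and Ski did not pass the test in either. In WT, 2 of the 10 genes passed as higher and 3 as lower, with an adjusted p under 0.05, where 10.6% of all 10743 genes tested were higher and 12.3% lower. In Nox4 KO, 3 of the 10 were higher and 3 lower, against 15.2% higher and 15% lower of the 10809 genes tested there. The control and stimulated KO libraries of the same replicate number deviated together, and with the number as a block 2714 genes were higher and 3118 lower in KO in place of 1644 and 1626, with the same calls for the 10 genes. Without WT_TGFb replicate 2 the WT counts of members stayed at 2 higher and 3 lower, and those over all genes were 1649 and 1757. Without WT_CTRL replicate 3 they were 1 higher and 2 lower for members, and 649 and 804 over all genes. Without replicate 3 of KO_CTRL 2 members were higher and 1 lower in KO, and without replicate 3 of KO_TGFb 2 were higher and 3 lower. Scaling by library totals in place of TMM turned the 50.3% of KO calls that were higher into 33.1%. The median log2 fold change of the 10 genes was -0.08 in WT and -0.05 in KO, beside -0.0027 and -0.01 over all genes tested.

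**Figure D1:**
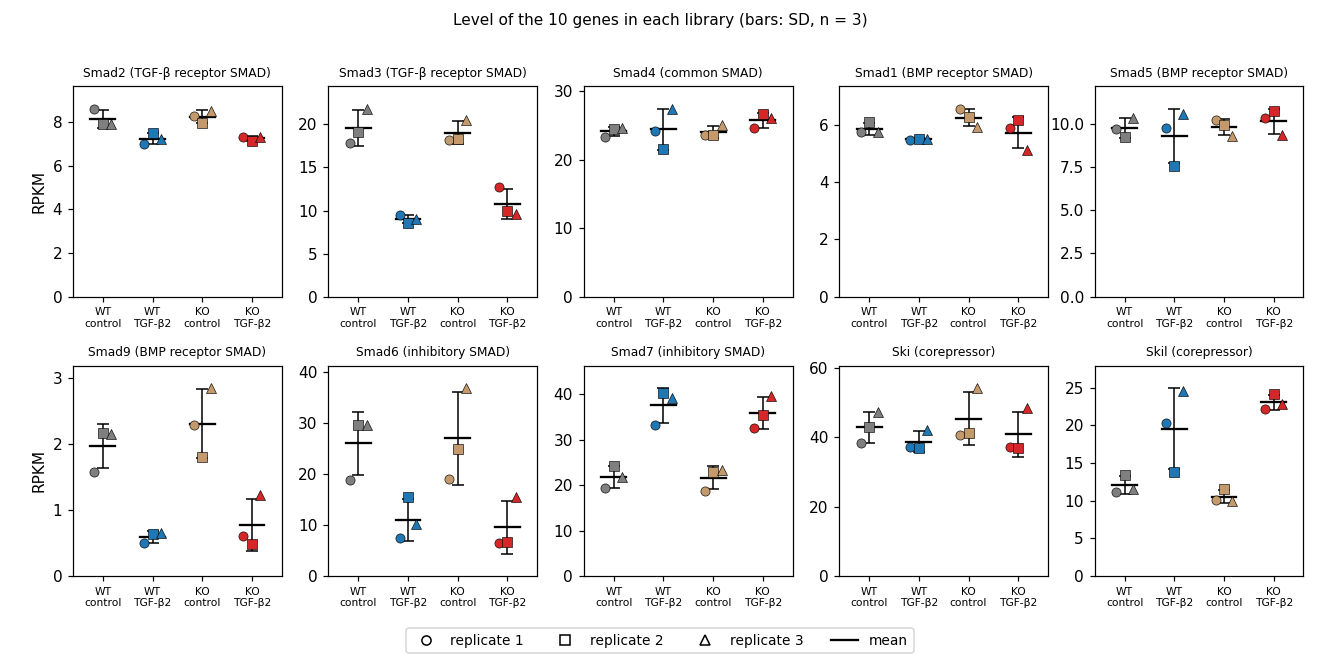
Level of each of the 10 genes in RPKM (y axis, from 0, a scale of its own per gene) in the 12 libraries. Points are libraries, with the replicate number as the symbol, horizontal lines are group means and bars are SD (n = 3). Smad3, Smad6 and Smad9 sit lower and Smad7 and Skil higher in the stimulated groups. KO replicate 3 is the highest KO library for Smad2, Smad6, Smad7, Smad9 and Ski in both conditions.

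Measured per length, Ski had the highest mean level in all 4 groups and Smad9 the lowest. In WT_CTRL the order was Ski with 42.9 RPKM, then Smad6 (26.0), Smad4 (24.1), Smad7 (21.9) and Smad3 (19.6), whose ranges overlapped from each to the next, then Skil (12.0), Smad5 (9.76), Smad2 (8.14), Smad1 (5.86) and Smad9 (1.97), which did not overlap their neighbours. KO_CTRL had the same order, with overlap between Skil (10.5) and Smad5 (9.82) and none between Smad4 (24.0) and Smad7 (21.7). In WT_TGFb, Smad7 at 37.6 RPKM lay within the range of Ski at 38.7, and Smad6 (11), Smad5 (9.27) and Smad3 (9.02) followed Smad4 (24.4) and Skil (19.5), each overlapping the next. In KO_TGFb, Ski (40.8) and Smad7 (35.9) again overlapped, followed by Smad4 (25.7) and Skil (23.0), and then by Smad3 (10.8), Smad5 (10.1) and Smad6 (9.52), which overlapped. TMM scaling gave the same order in every group. The sum over all 10 genes was 172 RPKM ± 15.3 (SD, n = 3) in WT_CTRL, 163 ± 11.9 in WT_TGFb, 174 ± 20.01 in KO_CTRL and 170 ± 13.4 in KO_TGFb, with ranges that overlapped.

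For 6 of the 10 genes RefSeq gave a promoter window on GRCm38.p6, from 250 bases before to 50 after an annotated start, and windows for Skil, Smad2, Smad4 and Smad7 were not used here. The windows of the 3 genes that fell in both genotypes are shown because these genes moved together. SMAD proteins are known to bind the palindrome GTCTAGAC, its short form CAGAC and, with BMP signals, GGCGCC, and these letters were searched on both strands, where CAGAC read on the other strand is GTCTG. Capitals mark a match.
Smad6, chr9:64022010-64022309, minus strand: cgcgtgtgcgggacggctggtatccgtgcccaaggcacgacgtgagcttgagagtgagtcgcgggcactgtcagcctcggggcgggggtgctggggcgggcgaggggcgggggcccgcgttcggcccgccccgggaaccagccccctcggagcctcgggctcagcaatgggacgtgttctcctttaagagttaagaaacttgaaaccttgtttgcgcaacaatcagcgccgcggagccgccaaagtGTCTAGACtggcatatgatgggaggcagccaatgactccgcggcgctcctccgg
Smad9, chr3:54755332-54755631, plus strand: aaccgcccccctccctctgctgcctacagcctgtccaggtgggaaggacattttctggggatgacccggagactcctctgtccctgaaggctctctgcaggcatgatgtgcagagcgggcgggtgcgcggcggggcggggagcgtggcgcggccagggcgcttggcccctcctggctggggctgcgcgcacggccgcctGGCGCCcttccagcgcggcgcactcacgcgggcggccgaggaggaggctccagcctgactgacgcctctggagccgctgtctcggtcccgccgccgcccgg
Smad3, chr9:63757945-63758244, minus strand: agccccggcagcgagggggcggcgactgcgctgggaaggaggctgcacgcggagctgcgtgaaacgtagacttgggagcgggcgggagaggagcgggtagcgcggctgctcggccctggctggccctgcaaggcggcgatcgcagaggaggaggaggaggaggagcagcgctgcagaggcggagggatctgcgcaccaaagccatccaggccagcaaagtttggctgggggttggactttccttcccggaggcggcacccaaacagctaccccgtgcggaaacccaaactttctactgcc
The Smad6 window held the full palindrome, beginning 4 bases before the start, which 0.213% of all 32851 windows held. The Smad9 window held GGCGCC, beginning 51 bases before the start, a match found in 11.9% of windows. The Smad3 window held none of the 3 motifs. Among the genes that did not pass the test in WT or KO, Ski held GGCGCC once, Smad5 held it in 2 overlapping windows and CAGAC in another, and Smad1 held none, while 49.6% of all windows held CAGAC or its complement. A match describes letters in this window and does not show that a protein bound there.

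Smad3 encodes the receptor SMAD that binds DNA directly. Its gene lies on chromosome 9, from 63646767 to 63757994 on the minus strand of GRCm38. Its level was 17.8, 19.1 and 21.8 RPKM in the 3 WT_CTRL libraries and 9.48, 8.58 and 9.02 in WT_TGFb. In KO it was 18.2, 18.2 and 20.5 RPKM without and 12.8, 9.91 and 9.62 with TGF-β2. In both genotypes every stimulated library was below every unstimulated one. The log2 fold change was -1.07 in WT (SE 0.10, adjusted p = 0.00106) and -0.73 in KO (SE 0.12, adjusted p = 0.00967), and Smad3 passed in all 6 fits that left out 1 library in each genotype. Beside these calls, the groups of 46.5% of all genes tested in WT and 48.5% in KO did not overlap.

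Smad2 encodes the other receptor SMAD of the TGF-β branch, whose main form cannot bind DNA by itself. It had 8.60, 7.92 and 7.89 RPKM in WT_CTRL and 6.98, 7.51 and 7.20 in WT_TGFb, and 8.26, 7.94 and 8.51 in KO_CTRL and 7.30, 7.12 and 7.33 in KO_TGFb. All stimulated values were below all unstimulated values of their genotype on this scale. With TMM scaling of the 6 libraries of a comparison they did not overlap either. In WT the ranges overlapped when all 12 libraries were scaled together by TMM. The log2 fold change was -0.13 in WT (95% interval -0.34 to 0.07, adjusted p = 0.301) and -0.10 in KO (-0.21 to 0.02, adjusted p = 0.169), and neither passed. With library totals only in place of TMM the KO value was -0.18 with an adjusted p of 0.0449. The Smad2 to Smad3 ratio of RPKM rose from 0.420 ± 0.0609 (SD, n = 3) to 0.803 ± 0.0692 in WT, and from 0.434 ± 0.0193 to 0.684 ± 0.100 in KO. Both ratios were higher in all stimulated libraries, while the sum of both genes went from 27.7 to 16.3 RPKM in WT and from 27.2 to 18.02 in KO.

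Smad4, the partner shared by both branches, changed little. Its level was 23.4, 24.4 and 24.5 RPKM in WT_CTRL and 24.1, 21.6 and 27.4 in WT_TGFb, with a log2 fold change of 0.06 (adjusted p = 0.735). In KO it was 23.5, 23.6 and 24.99 without and 24.5, 26.6 and 26.1 with TGF-β2, which overlapped as RPKM and did not after TMM scaling. The KO change of 0.19 (SE 0.05, adjusted p = 0.0462) passed, but no fit that left out 1 of the 6 libraries, control or stimulated, did (0.16 to 0.22, adjusted p from 0.0627 to 0.162). It was 0.10 with library totals only (adjusted p = 0.233).

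The BMP receptor SMADs split. Smad9 fell in both genotypes, and Smad1 and Smad5 did not pass. Smad9, on chromosome 3 from 54755582 to 54801257 on the plus strand, had 1.58, 2.17 and 2.15 RPKM in WT_CTRL and 0.494, 0.637 and 0.656 in WT_TGFb. In KO it had 2.29, 1.80 and 2.85 RPKM without and 0.604, 0.489 and 1.23 with TGF-β2. The groups did not overlap in either genotype, and replicate 3 was the highest KO library in both conditions. The log2 fold change was -1.69 in WT (SE 0.18, adjusted p = 0.00172), the largest of the 10 genes, and -1.49 in KO (SE 0.36, adjusted p = 0.0269). Smad9 passed in all 6 WT fits without 1 library. In KO it passed only in the fit without KO_TGFb replicate 3, and without any other library, in either KO group, its adjusted p was between 0.0517 and 0.0841. Within the same KO replicate number it changed by -1.82, -1.78 and -1.09 (log2 of TMM-scaled RPKM). With the number as a block in the edgeR fit, its KO change was -1.55 (adjusted p = 0.00146).

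Smad1, on chromosome 8 from 79338395 to 79399518 on the minus strand, was between 5.74 and 6.10 RPKM in WT_CTRL, 5.46 and 5.51 in WT_TGFb, 5.93 and 6.54 in KO_CTRL and 5.12 and 6.17 in KO_TGFb. Its WT groups did not overlap as RPKM and did after TMM scaling. Its log2 fold change was -0.06 in WT (95% interval -0.26 to 0.15) and -0.04 in KO (-0.28 to 0.20). Smad5, on chromosome 13 from 56703010 to 56742377 on the plus strand, lay between 7.53 and 10.7 RPKM across all libraries, with changes of -0.03 in WT (-0.37 to 0.31) and 0.13 in KO (-0.07 to 0.33). The intervals for Smad1 and Smad5 do not reach the size of the fall of Smad9 in the same genotype. Of the 50-base stretches of Smad5, 0.711% also occur in the overlapping Gm27301, and 0.169% of those of Smad9 in other genes, against 0 for the other 8.

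The inhibitory SMADs went in opposite directions. SMAD6 is known mainly as a brake on BMP signals and SMAD7 on both branches. Smad6, on chromosome 9 from 63953076 to 64022059 on the minus strand, had 18.8, 29.6 and 29.6 RPKM in WT_CTRL and 7.42, 15.4 and 10.2 in WT_TGFb. In KO it had 19.1, 25 and 36.8 RPKM without and 6.39, 6.70 and 15.5 with TGF-β2. No stimulated library reached the lowest unstimulated one of its genotype, but the spread within groups was wide, with a coefficient of variation from 23.9% to 54.2%. The log2 fold change was -1.20 in WT (SE 0.28, adjusted p = 0.0246) and -1.42 in KO (SE 0.41, adjusted p = 0.0445). In WT the call was lost without WT_CTRL replicate 2 or 3 (adjusted p = 0.0775 and 0.0769) and without WT_TGFb replicate 1 or 3 (0.059 and 0.0556). In KO it held only without KO_TGFb replicate 3, and without any other KO library the adjusted p was between 0.0637 and 0.145. Within the same KO replicate number Smad6 changed by -1.48, -1.80 and -1.12, again on the log2 scale. With the number as a block in the edgeR fit, its KO change was -1.48 (adjusted p = 0.000773).

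Smad7 rose in both genotypes. It had 19.5, 24.3 and 21.9 RPKM in WT_CTRL and 33.2, 40.3 and 39.2 in WT_TGFb. In KO it had 18.8, 22.9 and 23.3 RPKM without and 32.6, 35.5 and 39.6 with TGF-β2. The lowest stimulated library was above the highest unstimulated one in both. The log2 fold change was 0.82 in WT (SE 0.11, adjusted p = 0.00424) and 0.81 in KO (SE 0.11, adjusted p = 0.00539), and Smad7 passed in all 6 fits without 1 library in each genotype. Summed over Smad6 and Smad7, the inhibitory SMADs had 47.9 RPKM in WT_CTRL and 48.6 in WT_TGFb, and 48.7 in KO_CTRL and 45.4 in KO_TGFb, with overlapping ranges. The Smad7 to Smad6 ratio went from 0.865 ± 0.152 (SD, n = 3) to 3.65 ± 0.947 in WT and from 0.846 ± 0.187 to 4.32 ± 1.53 in KO. The Smad7 to Smad3 ratio, of an inhibitor to a signal carrier, went from 1.12 ± 0.138 to 4.18 ± 0.613 in WT and from 1.14 ± 0.113 to 3.42 ± 0.798 in KO.

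**Figure D2:**
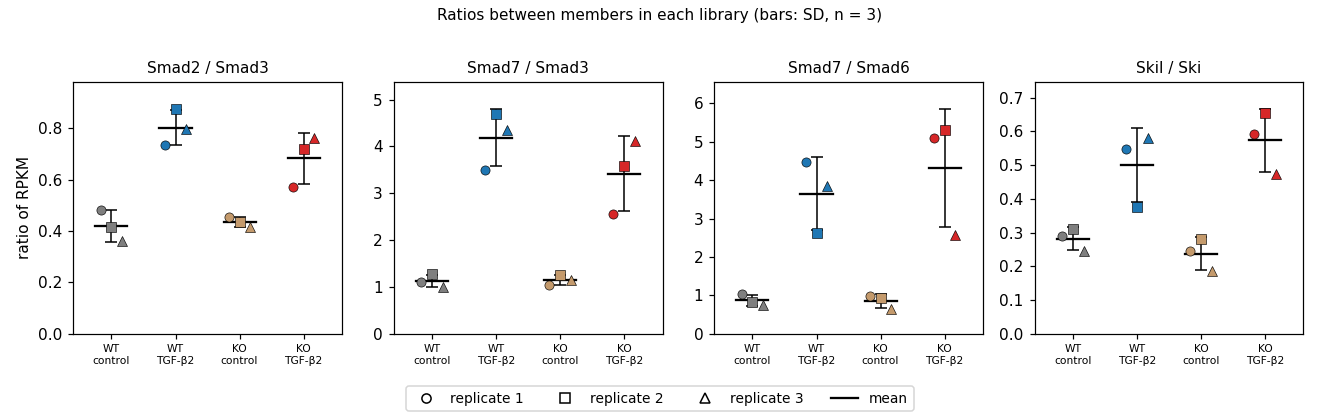
Ratios of RPKM between pairs of members (y axis, from 0) in each library, with group means (lines) and SD (bars, n = 3). The 4 ratios plotted are higher in every stimulated library than in every unstimulated library of the same genotype; Smad7 to Smad6 goes from 0.865 to 3.65 in WT and from 0.846 to 4.32 in KO.

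Of the corepressors, Skil rose and Ski did not pass. Skil, on chromosome 3 from 31095058 to 31122577 on the plus strand, had 11.1, 13.4 and 11.6 RPKM in WT_CTRL and 20.3, 13.8 and 24.5 in WT_TGFb. In KO it had 10.0, 11.6 and 10.0 RPKM without and 22.1, 24.1 and 22.9 with TGF-β2. WT_TGFb replicate 2, the library of its group that stood apart over all genes, was just above the highest WT_CTRL library. All KO_TGFb libraries stood clear of KO_CTRL. The log2 fold change was 0.74 in WT (SE 0.21, adjusted p = 0.0491) and 1.21 in KO (SE 0.09, adjusted p = 0.00148). Skil passed in all 6 KO fits without 1 library. In WT it passed only without WT_TGFb replicate 2 (0.95, adjusted p = 0.00508), and without any other library, control or stimulated, it was between 0.55 and 0.85 with an adjusted p from 0.0913 to 0.161. The WT adjusted p was 0.0521 with RLE size factors and 0.051 with library totals.

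Ski, on chromosome 4 from 155154075 to 155222592 on the minus strand, had 38.4, 43.0 and 47.2 RPKM in WT_CTRL and 37.1, 36.9 and 42.2 in WT_TGFb, and 40.8, 41.2 and 54.2 in KO_CTRL and 37.3, 36.8 and 48.3 in KO_TGFb. The ranges overlapped in both genotypes, and the log2 fold change was -0.10 in WT (95% interval -0.34 to 0.13) and -0.07 in KO (-0.42 to 0.29). The Skil to Ski ratio was 0.282 ± 0.0332 (SD, n = 3) in WT_CTRL, 0.501 ± 0.111 in WT_TGFb, 0.237 ± 0.0486 in KO_CTRL and 0.573 ± 0.0927 in KO_TGFb. Ski mRNA was thus still the more abundant of both in every library. The ratio of Skil to Smad7, both of which rose, was 0.551 ± 0.0213 in WT_CTRL and 0.526 ± 0.159 in WT_TGFb, with overlapping ranges, and 0.489 ± 0.0542 in KO_CTRL and 0.645 ± 0.0587 in KO_TGFb, without overlap.

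**Figure D3:**
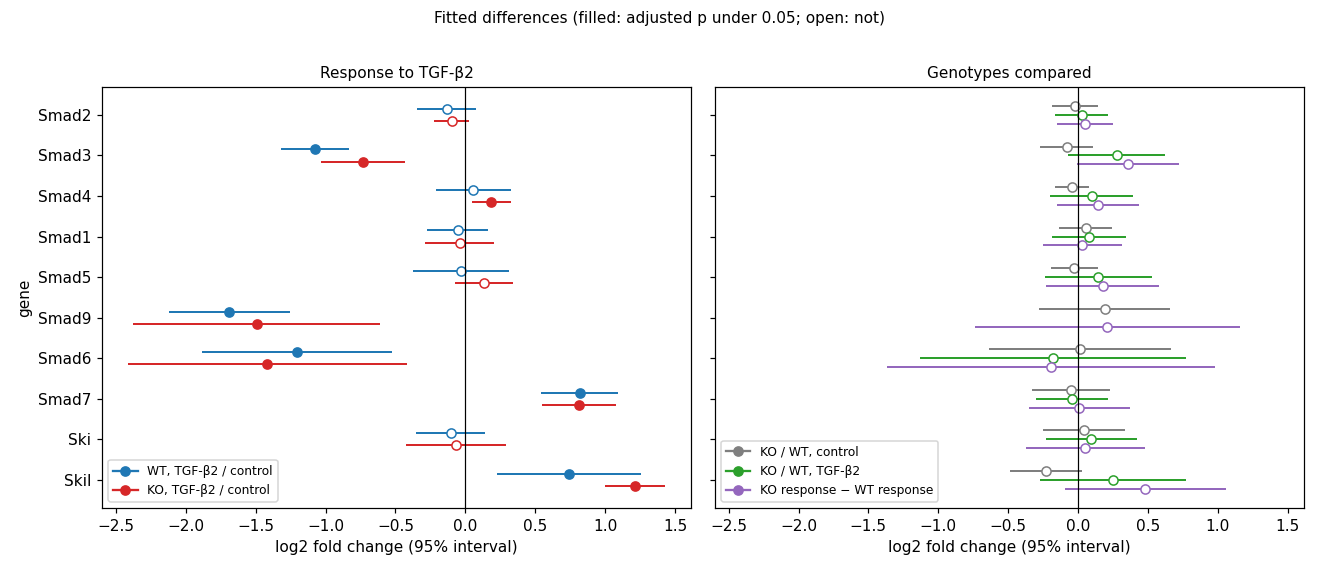
Fitted log2 fold changes (x axis) of the 10 genes (y axis) with 95% intervals. The left panel gives the response to TGF-β2 in WT and KO and the right panel the comparisons of the genotypes and of their responses; filled points have an adjusted p under 0.05, as 5 genes have in WT, 6 in KO and none in the right panel. Smad9 was not tested between genotypes after TGF-β2.

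KO and WT were compared to ask whether the levels of these genes depended on Nox4. None of the 10 genes passed in unstimulated cells, where 0% of 10767 genes passed by edgeR, and 596 had an unadjusted p under 0.05, of which none was a member. After TGF-β2 none of the 9 members tested passed, with 0% of 10439 genes called and 336 under an unadjusted 0.05, again without a member. DESeq2 called 9 genes higher and 19 lower in unstimulated cells and 8 higher and 8 lower after TGF-β2, and none was a member. In unstimulated cells all 10 members overlapped between the genotypes, where 12% of genes did not overlap. After TGF-β2 the 9 members tested overlapped too, where 10.5% of genes did not, though as RPKM without TMM scaling the 3 KO_TGFb values of Smad3 were above the 3 WT_TGFb values. The values furthest from 0 were Skil in unstimulated cells, -0.23 (95% interval -0.48 to 0.02, adjusted p = 0.83), and Smad3 after TGF-β2, 0.27 (-0.06 to 0.61, adjusted p = 0.835). For Smad7 the intervals were -0.33 to 0.22 and -0.30 to 0.21, and for Smad6, with its wider spread, -0.63 to 0.65 and -1.13 to 0.76, so a difference of a fold of 2 between genotypes is inside the interval for Smad6 after TGF-β2. Smad9 had a mean under 1 RPKM in both stimulated groups and was not tested there. With edgeR's filterByExpr in place of this limit its difference was 0.39 (adjusted p = 0.858).

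The test of whether the responses differed between genotypes gave no call for any of 10890 genes (0%) by edgeR, with 290 at an unadjusted p under 0.05, none of them a member, and 6 by DESeq2. The KO response minus the WT response was 0.48 for Skil (SE 0.26, unadjusted p = 0.0898, adjusted p = 0.85), 0.35 for Smad3 (SE 0.16, unadjusted p = 0.0522, adjusted p = 0.85) and 0.01 for Smad7 (SE 0.16, adjusted p = 0.995). The 95% intervals were -0.09 to 1.05 for Skil and -0.00407 to 0.714 for Smad3. Smad4, which passed in KO and not in WT, differed by 0.14 (-0.15 to 0.43, adjusted p = 0.85). The response is therefore not shown to differ between genotypes for any member.

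The genes around the members were grouped into 5 lists by their role. These lists were chosen by known function, but with earlier results of these data known. Their counts are therefore a description of these libraries and not an independent test. Of 12 receptors and coreceptors tested, 1 rose and 4 fell in WT, while 3 rose and 4 fell in KO (all genes: 10.6% and 12.3% in WT, 15.2% and 15% in KO), with a median log2 fold change of -0.10 and -0.14. Tgfbr3, the coreceptor betaglycan that presents TGF-β2, fell from a mean of 41.4 to 4.46 RPKM in WT (log2 fold change -3.17, SE 0.19) and from 38.98 to 5.14 in KO (-2.84, SE 0.28). The activin receptors Acvr2a (-1.0 and -0.48) and Acvr1b (-0.94 and -0.79) fell in both genotypes. Acvr1, a type I receptor of the BMP branch, rose by 0.99 and 1.10. Bmpr2 (1.07) and Bmpr1b (0.65), receptors of BMPs, rose in KO, and Bambi, a decoy receptor, fell there (-0.49); in WT they were at 0.50, 0.46 and -0.10 and did not pass.

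Of 16 genes for the turnover of SMAD and SKI proteins, 2 rose and 4 fell in WT, while 4 rose and 4 fell in KO (beside 10.6% and 12.3% of all genes in WT and 15.2% and 15% in KO), with medians of -0.14 and -0.10. The ubiquitin ligases Smurf2 (0.61 in WT, 0.80 in KO) and Smurf1 (0.49 and 0.73), which inhibitory SMADs recruit to the receptors, rose in both genotypes. Trim33, a ligase that acts on SMAD4, rose in KO (0.51) and was at 0.12 in WT. Ctdspl, a small phosphatase of the family that acts on SMAD linkers, fell in both (-1.30 and -1.13), as did the deubiquitinase Usp11 (-0.94 and -0.86) and the ligase Wwp1 (-0.73 and -0.49).

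Of 20 SMAD partners and adaptors, 3 rose and 1 fell in WT, while 6 rose and 1 fell in KO (beside 10.6% and 12.3% of all genes in WT and 15.2% and 15% in KO), with a median of 0.12 in both. Pmepa1, a membrane protein that binds SMAD2 and SMAD3 and limits the signal, rose from 69.7 to 188 RPKM in WT (1.47, SE 0.08) and from 71.0 to 181 in KO (1.44, SE 0.17). Runx1, a transcription factor that works with SMADs, rose by 1.10 and 1.34, and the corepressor Tgif1 by 0.59 and 0.49. Dab2, an adaptor between receptors and SMADs, fell in both (-1.32 and -1.13).

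Of 14 genes known as TGF-β SMAD targets, 6 rose and 0 fell in WT, while 5 rose and 0 fell in KO (beside 10.6% and 12.3% of all genes in WT and 15.2% and 15% in KO), with medians of 0.15 and 0.18. Pdgfb, a growth factor, rose most, from a mean of 0.366 to 7.31 RPKM in WT (4.35, SE 0.26) and from 0.415 to 5.26 in KO (3.73, SE 0.74). The matricellular protein Ccn2 rose by 1.57 and 1.59. Ltbp2, a matrix protein of the latent TGF-β binding family, rose by 1.26 in WT and 1.46 in KO. The collagen genes Col1a1 and Col1a2 were between -0.21 and -0.04 and did not pass.

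Of 10 tested genes known as BMP SMAD targets, 0 rose and 4 fell in WT, while 0 rose and 5 fell in KO (beside 10.6% and 12.3% of all genes in WT and 15.2% and 15% in KO), with medians of -0.41 and -0.93. Id4 and Id2, inhibitors of helix-loop-helix factors, fell by most, Id4 by 2.81 in WT and 2.96 in KO and Id2 by 1.84 and 1.87 on the log2 scale. Nog, the BMP antagonist noggin, fell in WT (-1.65, adjusted p = 0.0435) and was at -1.57 in KO without passing. Atoh8, a helix-loop-helix factor, fell in both (-1.52 in WT and -1.76 in KO). Smad6 is itself a known BMP target and, like the passed genes of this list, was lower after TGF-β2. Of the 10 tested genes, 2 in WT and 3 in KO had a log2 fold change above 0 without passing. The list medians stand beside -0.0027 in WT and -0.01 in KO over all genes, and no list gene passed in either comparison of the genotypes or in the test of the responses.

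**Figure D4:**
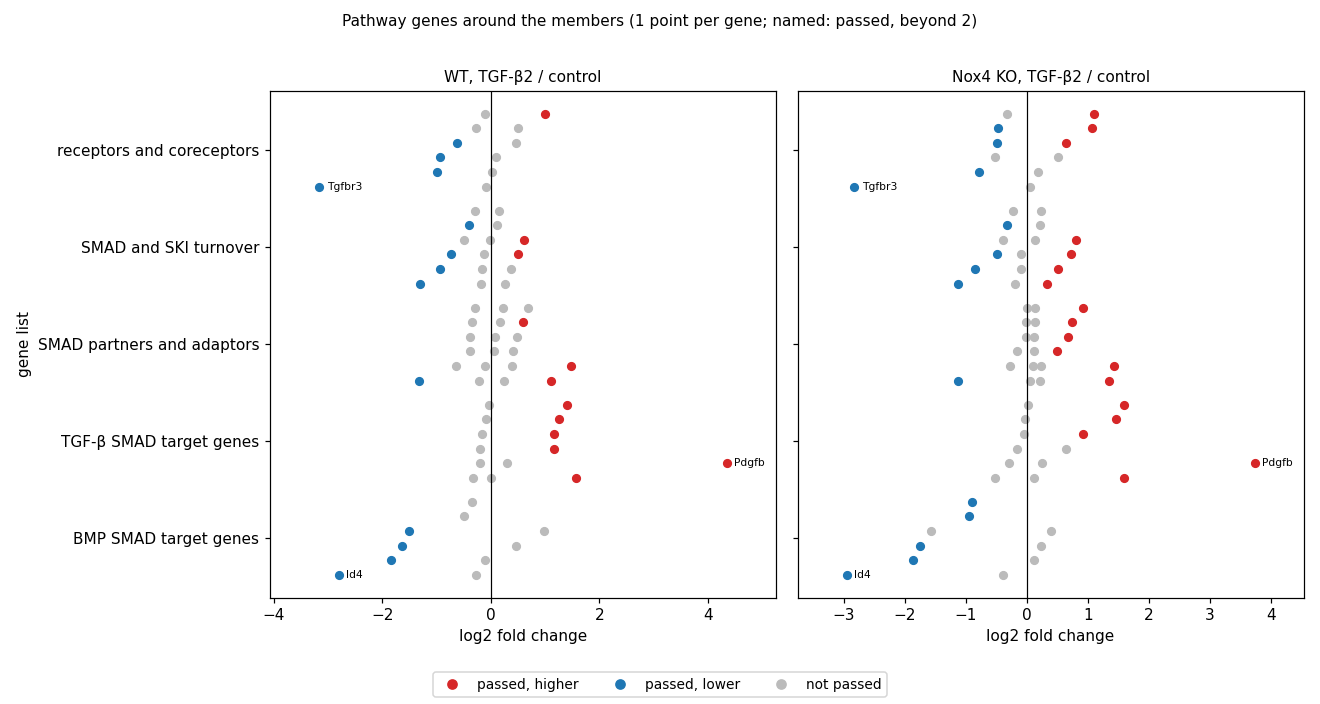
Log2 fold change after TGF-β2 (x axis) of each tested gene of the 5 pathway lists (y axis, points spread vertically for view), in WT (left) and Nox4 KO (right). Red and blue points passed as higher or lower at an adjusted p under 0.05 and grey points did not; genes that passed and lie beyond 2 on either side are named. Passed TGF-β targets are all higher (6 and 5) and passed BMP targets all lower (4 and 5).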

How the data were processed

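Single-end reads of RNA from 12 libraries were aligned by the authors with STAR to GRCm38, keeping reads with 1 location. They deposited the raw counts per gene over merged protein-coding exons for 21556 genes, without normalization, and the submitters' processing notes give STAR 2.4, featureCounts 1.4.6 and CASAVA 1.8.2. The use of strand in counting is not given in the sources used here. Columns were assigned to samples by their names.

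RPKM was computed from count, merged exon length (GENCODE annotation of GRCm38) and library total. Genes with a mean of at least 1 RPKM in a compared group were tested with edgeR 4.0.16 in R 4.3.3 (quasi-likelihood test, TMM normalization, Benjamini-Hochberg adjustment over all genes tested, limit 0.05, any fold), on the 6 libraries of a comparison, or all 12 for the genotype by TGF-β2 interaction. Standard errors and 95% intervals come from the F statistic and its degrees of freedom. Overlap of groups was judged on TMM-scaled counts. The procedure was tested on simulated data. Counts bound precision by counting error only, and 3 replicates set the rest.

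The members and gene lists were chosen with earlier results of these data known. Named are all members, Nox4, per list and TGF-β2 comparison up to 3 passed genes with the largest rise and up to 3 with the largest fall, and for the 3 members with the largest WT change the 3 genes most like them; values of other list genes that did not pass are given only as contrasts and were chosen after they were seen. Some genes that this rule names are not reported here. Same-numbered KO_CTRL and KO_TGFb libraries deviated together (correlations 0.771, 0.685 and 0.748). Neither the labels nor the paper state a pairing, and what the libraries of a number share was not tested. Alternatives were DESeq2 1.42.0, RLE factors, library totals, filterByExpr, no filter, all 12 libraries, a replicate block, a fold of at least 2 and leaving out each library.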

Additional observations from a re-analysis of the deposited data

How the results depend on the processing

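The number of members higher in WT fell from 2 to 1 with RLE factors, library totals or a replicate block, where Skil was lost (adjusted p = 0.0598 with the block), and to 0 with a fold of at least 2. Without 1 library it was 1 to 2, and the number lower was 2 to 3. In KO the number higher was 1 with a fold of at least 2 and 2 without any 1 library, and the number lower was 1 to 3. The fold limit leaves fewer genes by construction, and the cause of the other changes was not tested.

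Over all genes, the WT response had 1774 higher with all 12 libraries in the fit and 284 higher and 548 lower with a fold of at least 2, and 523 to 1649 higher and 746 to 1757 lower without 1 library. In KO 1057 were higher with library totals, 2714 higher and 3118 lower with the replicate block, 240 higher and 497 lower with a fold of at least 2, and 583 to 1718 higher and 574 to 1795 lower without 1 library. DESeq2 called 9 higher and 19 lower unstimulated, 8 higher and 8 lower after TGF-β2, and 6 lower in the interaction. With all 12 libraries in the fit 1 gene was higher in KO unstimulated. Without 1 library 0 to 1 were lower there and 0 to 1 higher after TGF-β2. KO Smad4 also lost its call with no filter and with all 12 libraries (adjusted p = 0.0531 and 0.0967). Direction turned for no called member.

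In WT, same-numbered control and stimulated libraries correlated at 0.0731, 0.437 and 0.532. The highest correlations of these control libraries with another number were 0.308, -0.104 and 0.0309. Libraries of number 2 and 3 thus deviated together and those of number 1 did not, and a pairing was not tested. The block moved the WT counts to 1328 higher and 1769 lower. The block changed no call of a member other than that of Skil in WT.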

Other observations

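For the 3 members with the largest change in WT, the genes whose log2 level was most alike over the 12 libraries were sought among 10880 genes, as a description without a test, since the points share the same stimulation and libraries. For Smad9 they were Fgfr2, a fibroblast growth factor receptor (Pearson r = 0.994), Fgf10, a growth factor (0.989), and Smo, the hedgehog signal transducer (0.989). Their log2 fold changes after TGF-β2 were -1.42, -4.07 and -0.57 in WT and -1.30, -3.74 and -0.44 in KO. For Smad6 they were Gypc, a glycophorin (0.982), Calhm5 (0.9751) and the BMP target Atoh8 (0.9749), with -0.65, -1.15 and -1.52 in WT. For Smad3 they were Pcx, the pyruvate carboxylase (0.981), Kcnd1, a potassium channel (0.976), and Shc1, a signaling adaptor (0.976), with -1.39, -1.38 and -0.46 in WT.

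Within KO, replicate 3 had the highest RPKM of Smad2, Smad6, Smad7, Smad9 and Ski both without and with TGF-β2. With TMM scaling this held for Smad6, Smad9 and Ski only. The changes within a replicate number were closer for Smad7 (0.89, 0.73 and 0.89) and Skil (1.24, 1.16 and 1.32) than for Smad3 (-0.41, -0.78 and -0.97), all as log2 of TMM-scaled RPKM.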
